A study of Spinacia oleracea with 12 samples.

Results

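Leaf laminae and roots of PI175311, the spinach (Spinacia oleracea) accession that the study used as its high-oxalate genotype, were compared gene by gene. The unit was FPKM, fragments scaled to gene length and to the fragments counted in genes, so that levels of different genes can be read against each other per length. A gene entered the comparison when it had at least 1 FPKM in 3 or more of the 6 PI175311 libraries, which held for 17817 of the 25495 genes of the table. Plants of PI175311 and of Bloomsdale, the low-oxalate heirloom variety, gave RNA at 6 weeks from both organs, with 3 libraries for each of the 4 combinations of genotype and tissue. The study took its replicates from independent plants, and no treatment separated the groups. Whether a leaf and a root library came from the same plant is not stated, and the main test treated the 6 PI175311 libraries as independent. The labels give 200 ppm of nitrogen for every library, whereas the study's methods name a nutrient solution free of nitrogen. PI175311 entered with 1 accession only, and every library was made from a whole organ part holding many cell types, so fewer cells of a type and less RNA per cell cannot be told apart. Libraries are named by tissue and by the replicate number of the labels, and Bloomsdale is used only where a tissue difference is set against the same difference in another genotype.

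Oxalate is the anion of oxalic acid, which spinach stores in large amounts in its vacuoles, dissolved or as calcium oxalate crystals. Glyoxylate, ascorbate and oxaloacetate are the precursors most often discussed. Glyoxylate comes from photorespiration, which belongs to green tissue, and from isocitrate in the glyoxylate cycle, which uses the acetyl-CoA released by fatty acid oxidation. Removal of oxalate can start with its joining to coenzyme A. Leaves carry out photosynthesis, whereas roots take up water and ions and live on imported sugar.

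The FPKM values held enough digits to recover the whole fragments behind them, and the 6 PI175311 libraries held 18451262 to 25245734 fragments counted in genes. Over the 17817 genes, log2(FPKM + 1) had a Pearson's r of 0.948 to 0.963 within the 3 leaf libraries, 0.897 to 0.930 within the 3 root libraries and 0.485 to 0.581 over the 9 pairs of a leaf and a root library. The median SD of log2(FPKM + 0.1) over replicates was 0.30 in leaf and 0.34 in root. Root 1 stood above the others most often, with 142 genes at least 8-fold above both other roots, against 70 in root 2 and 48 in root 3. In leaf, leaf 2 held 50 such genes, leaf 1 held 12 and leaf 3 held 14. Genes at least 8-fold below both others of the tissue numbered 38, 86 and 62 in root 1, root 2 and root 3. In leaf 1, leaf 2 and leaf 3 they numbered 58, 29 and 43. None of the gene IDs was found in the reference table used here, so the tissue labels could not be checked against named marker genes. Ranked by the value the rule turns on, the FPKM reached in 3 libraries, the last gene inside had 1.00017 and the first outside 0.999518, with 174 genes between 1 and 1.1 and 210 between 0.9 and 1.

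Expression was more concentrated in leaf than in root. The 10 most abundant genes of each library held 32.8% ± 2.86 (SD, n = 3) of the summed FPKM in leaf and 13.0% ± 3.63 (SD, n = 3) in root, and the 100 most abundant held 59.8% ± 3.70 and 35.3% ± 7.41. In leaf 1, leaf 2 and leaf 3, the 54, 43 and 28 most abundant genes made up 50% of the summed FPKM. In root 1, root 2 and root 3, 370, 606 and 221 genes were needed. Every leaf library thus lay outside the range of the roots on this measure. At least 1 FPKM was reached by 16056 ± 297 genes in leaf and 17354 ± 30.9 in root, and the median of log2(FPKM + 1) over genes was 2.11 ± 0.14 and 2.57 ± 0.02 (SD, n = 3). The summed FPKM was 996470 ± 31791 in leaf and 769856 ± 30313 in root. The groups did not overlap in any of these 6 measures, each with an exact 2-sided permutation p = 0.10, the smallest that 3 libraries against 3 allow, and 0.10 after Benjamini-Hochberg adjustment over the 6.

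**Figure D1:**
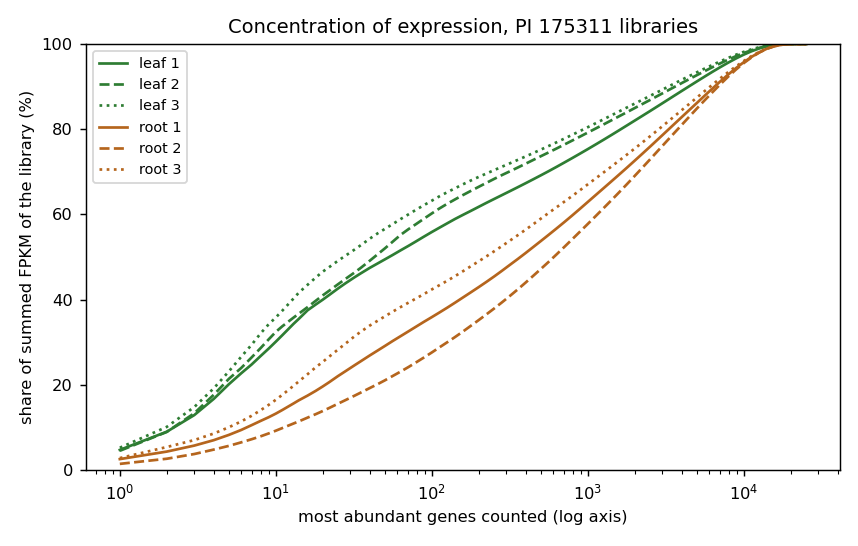
Share of the summed FPKM of each PI175311 library (vertical axis, percent) held by its most abundant genes (horizontal axis, number of genes counted from the most abundant, log axis). The 3 leaf curves (green) run above the 3 root curves (brown) at 10 and at 100 genes, where they reach 32.8% against 13.0% and 59.8% against 35.3% on average.

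The genes that filled the leaf libraries were present in root as well, with a lower mean for each of the 10 most abundant. The 10 genes with the highest mean in leaf ranged from 15286 to 46032 FPKM there and from 69.7 to 14978 FPKM in root. They held 29.8%, 32.0% and 35.8% of the summed FPKM in leaf 1, leaf 2 and leaf 3, and 8.87%, 3.19% and 13.0% in root 1, root 2 and root 3. The share in root 3 was the highest of the roots and still below every leaf. These 10 genes were short, with a median of 498 bases against 1519 bases over all tested genes. Limma (Benjamini-Hochberg adjusted p under 0.05) called 6 of the 10 higher in leaf and 0 higher in root, and of the 100 most abundant in leaf 73 and 3, against 15.7% and 42.8% of all tested genes, numbers that describe a list chosen by its leaf level. Of the 100 most abundant in root, 53 were called higher in root and 11 in leaf. Of the 100 most abundant genes of leaf and the 100 of root, 38 were common to both lists, and of the 10 most abundant, 4 were.

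Genes were called when limma's adjusted p (Benjamini-Hochberg over all 17817 genes) was under 0.05, with fold changes as leaf minus root on the log2(FPKM + 0.1) scale, which understates the change of genes at low levels. In all, 10422 genes were called, 58.5% of those tested. Of these, 2804 (15.7% of those tested) were higher in leaf and 7618 (42.8%) were higher in root, so 26.9% of the calls were higher in leaf. The difference in number came with a shift of the whole distribution, since the median of the log2 fold changes over the tested genes was -0.62. After median-of-ratios scaling, which sets the typical gene near equality between libraries, this median was -0.05 and 7383 genes (41.4%) were called, 3926 higher in leaf (22%) and 3457 higher in root (19.4%), with 53.2% of calls in leaf. All 2804 genes called higher in leaf from the deposited values remained so after scaling, as did 3457 of the 7618 higher in root, and 0 genes changed direction among the calls. After quantile normalization 47.3% of calls were higher in leaf, and after scaling to TPM 18.4%. Root calls thus outnumbered leaf calls from the deposited values, TPM and quantile normalization, and leaf calls outnumbered root calls after median-of-ratios scaling.

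**Figure D2:**
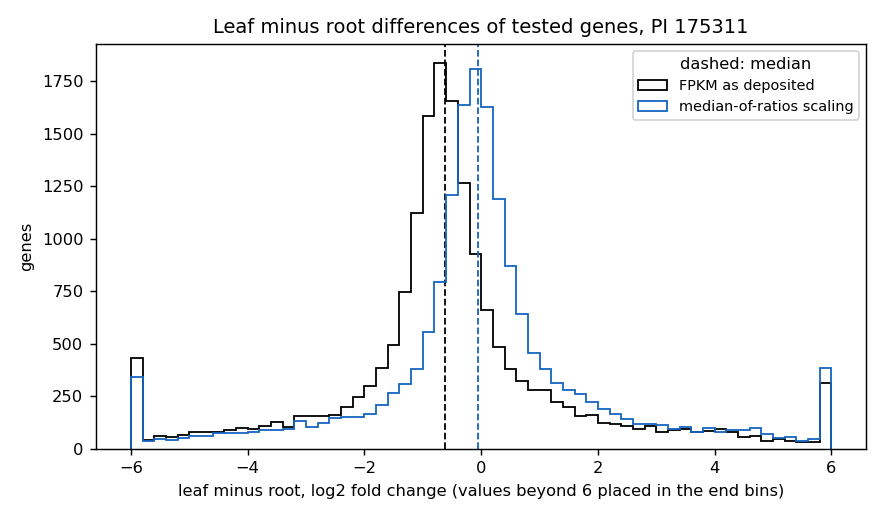
Number of tested genes (vertical axis) by leaf minus root log2 fold change (horizontal axis, bins of equal width, with values beyond 6 placed in the end bins), from FPKM as deposited (black) and after median-of-ratios scaling (blue). The dashed medians stand at -0.62 and -0.05, and both distributions have long tails on either side.

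From the deposited values, leaf calls were fewer and typically larger. Genes higher in leaf had a median log2 fold change of 2.58 and genes higher in root of -1.31. A change of at least 2-fold was found for 2506 of the genes called higher in leaf and for 5068 of those called higher in root. At 8-fold or more the numbers were 1199 and 1646, and at 32-fold or more 458 and 654. The median of -0.62 over all tested genes enters all of these sizes, which were not computed after scaling. Among the 4455 genes with the lowest mean FPKM, 12.6% were called higher in leaf and 35.4% higher in root, and among the 4454 with the highest, 20.3% and 46.0%. The genes called higher in leaf held 50.2%, 54.4% and 53.1% of the summed FPKM in leaf 1, leaf 2 and leaf 3, against 8.17%, 6.00% and 10.4% in root 1, root 2 and root 3. The genes called higher in root held 53.6%, 57.0% and 46.8% in the roots and 12.4%, 10.5% and 9.32% in the leaves. Both sets were called from these same libraries, so the direction of the shares follows from the choice and only their size is descriptive. The median lengths were 1513 bases for genes higher in leaf, 1581 for genes higher in root and 1449 for genes not called.

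Most genes were on in both tissues. At least 1 FPKM in all 6 libraries was found for 13596 genes, and 588 genes reached it in all leaves and in no root, against 1283 in all roots and in no leaf. With a stricter line, at least 1 FPKM in all 3 libraries of a tissue and under 0.05 FPKM in all 3 of the other, 70 genes were expressed in leaf alone and 263 in root alone. Left out in turn, root 1 changed the first number most, to 164. The genes expressed in leaf alone had a median of 5.11 FPKM and 2 of them averaged at least 100 FPKM, while those expressed in root alone had a median of 7.72 FPKM and 16 averaged at least 100 FPKM. The same on and off pattern stood in Bloomsdale for 26 of the 70 and 176 of the 263.

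The genes with the largest fold changes are known here by their IDs only. Spo02315 had 852.5, 2713 and 885.7 FPKM in leaf 1, leaf 2 and leaf 3 and 1.38, 0 and 0 FPKM in root 1, root 2 and root 3. Its log2 fold change was 12.34 ± 1.11 (SE, limma adjusted p = 2.55e-04), and all 23 of its root fragments came from root 1, without which it was 13.63. Spo02318 had 1006, 5703 and 1479 FPKM in leaf and 2.63, 0.298 and 0.0351 FPKM in root, with a log2 fold change of 11.92 ± 1.17 (SE, limma adjusted p = 3.57e-04) that was 13.10 without root 1 and 10.93 without root 3. Both genes were highest in leaf 2 and, among the roots, in root 1. In the other direction, Spo05786 had 0, 1.50 and 0 FPKM in leaf and 9477, 8171 and 4128 FPKM in root, a log2 fold change of -14.73 ± 1.09 (SE, limma adjusted p = 1.29e-04) that was -16.06 without leaf 2, -14.06 without leaf 1 and -14.06 without leaf 3. Spo13823 had 0, 0.483 and 0.174 FPKM in leaf and 6503, 2793 and 6103 FPKM in root, a log2 fold change of -14.22 ± 0.67 (SE, limma adjusted p = 3.43e-05) that was -14.82 without leaf 2 and -13.55 without leaf 1. The tissue with the low level held 0 to 83 fragments of these 4 genes per library, so the size of each fold change depends on the 0.1 FPKM added.

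Of the 15 oxalate-related genes that the study's text names by ID and function, 14 passed the filter and 1, Spo06441, did not. Limma called 4 of them higher in leaf and 3 higher in root, 50% of the 14 against 58.5% of all tested genes, and the same numbers were called after median-of-ratios scaling. Their median log2 fold change was -0.03, against -0.62 over all tested genes, and after scaling 0.55 against -0.05. Many of the 15 were named by the study for a higher level in PI175311 leaf than in Bloomsdale leaf, found in these same libraries. That choice drew on the leaf values compared here, so the medians describe a selected list. The 7 called genes were also those whose leaf and root libraries did not overlap, as was found for 69.3% of all tested genes. The 4 genes higher in leaf were the putative oxaloacetate acetylhydrolase OXAC2 (Spo21624), both ascorbate oxidases (Spo12052 and Spo12053) and the oxalate decarboxylase-like Spo19759. The 3 higher in root were isocitrate lyase (Spo13898), the putative alanine-glyoxylate aminotransferase (Spo12360) and the oxalate decarboxylase-like Spo25084.

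**Figure D3:**
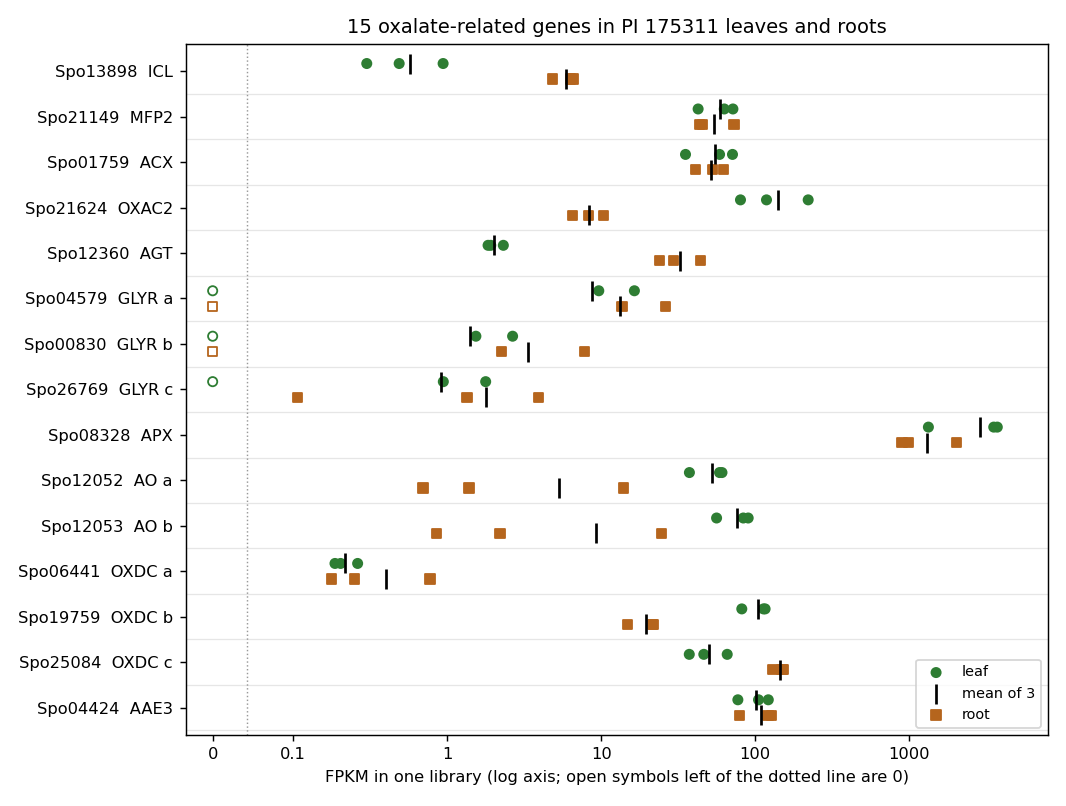
FPKM in each PI175311 library (horizontal axis, log axis, with 0 drawn left of the dotted line) of the 15 oxalate-related genes (rows), with leaf as green circles, root as brown squares and the mean of 3 as a black bar. GLYR stands for glyoxylate/succinic semialdehyde reductase-like, AO for ascorbate oxidase and OXDC for oxalate decarboxylase-like, and the letters a, b and c follow the order in which each group's IDs are given in the text. Leaf and root do not overlap for ICL, OXAC2, AGT, AO a, AO b, OXDC b and OXDC c.

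Among the genes of glyoxylate supply, isocitrate lyase was low in leaf and higher in root. Isocitrate lyase (ICL, Spo13898) splits isocitrate into succinate and glyoxylate. It had 0.940, 0.300 and 0.487 FPKM in leaf 1, leaf 2 and leaf 3, from 47, 14 and 27 fragments, and 4.82, 6.32 and 6.57 FPKM in root 1, root 2 and root 3. Every root lay above every leaf, and the log2 fold change was -3.25 ± 0.43 (SE, limma adjusted p = 0.00112), or 9.52-fold higher in root with a 95% interval of 4.68 to 19.3. After median-of-ratios scaling it was -2.73, and with 1 FPKM in place of 0.1 added, a value above every leaf level, it was -2.14.

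The fatty acid oxidation genes were at the same order of magnitude in both tissues. The multifunctional protein MFP2 (Spo21149), which carries the hydratase and dehydrogenase steps of peroxisomal beta-oxidation, had 71.5, 42.5 and 62.9 FPKM in leaf and 45.3, 72.7 and 43.2 FPKM in root. Acyl-CoA oxidase (Spo01759), which opens each round of that cycle, had 71.1, 35.2 and 58.6 FPKM in leaf and 52.5, 61.8 and 40.9 FPKM in root. Leaf 2 was the lowest leaf and root 2 the highest root for both genes, and the tissues overlapped. The log2 fold changes were 0.14 (95% interval -0.56 to 0.84, limma adjusted p = 0.688) for MFP2 and 0.05 (-0.68 to 0.78, limma adjusted p = 0.897) for acyl-CoA oxidase, intervals that leave room for a difference of either sign. After median-of-ratios scaling they were 0.72 and 0.62 (limma adjusted p = 0.0718 and 0.119). With TPM they were -0.23 and -0.32 (limma adjusted p = 0.536 and 0.403), so the sign depended on the scaling and neither gene was called. In the PI175311 libraries the FPKM of Spo01759 was 0.828 to 1.16 times that of Spo21149, so both stood at similar levels in each of these.

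OXAC2 (Spo21624), named after fungal enzymes that split oxaloacetate into oxalate and acetate, was the gene of the list with the highest leaf level after ascorbate peroxidase. It had 80.1, 220 and 118 FPKM in leaf 1, leaf 2 and leaf 3 and 6.47, 8.26 and 10.3 FPKM in root 1, root 2 and root 3. Leaf 2 was the highest leaf, and the lowest leaf was well above the highest root. The log2 fold change was 3.95 ± 0.39 (SE, limma adjusted p = 3.14e-04), a 15.4-fold higher level in leaf with a 95% interval of 8.13 to 29.2.

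Of the genes grouped here under glyoxylate use, an aminotransferase was higher in root and 3 reductase-like genes were detected in some libraries only. The putative mitochondrial alanine-glyoxylate aminotransferase (AGT, Spo12360), an enzyme that turns glyoxylate into glycine at the expense of alanine, had 2.31, 1.92 and 1.84 FPKM in leaf and 29.5, 23.8 and 44.1 FPKM in root. The leaves lay close together and far below all roots, with a log2 fold change of -3.90 ± 0.27 (SE, limma adjusted p = 8.82e-05), or 14.9-fold higher in root with a 95% interval of 9.57 to 23.2.

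The glyoxylate/succinic semialdehyde reductase-like genes are named after a family whose enzymes reduce glyoxylate to glycolate. The study describes the proteins of Spo04579 and Spo00830 as truncated, and whether they act on glyoxylate was not tested. How reads matching more than 1 of these genes were assigned is not given in the sources used here. Spo04579 had 16.4, 0 and 9.64 FPKM in leaf 1, leaf 2 and leaf 3 and 13.6, 26.1 and 0 FPKM in root 1, root 2 and root 3. Spo00830 had 2.66, 0 and 1.53 FPKM in leaf and 2.25, 7.74 and 0 FPKM in root. Spo26769 had 1.78, 0 and 0.943 FPKM in leaf and 1.34, 3.94 and 0.106 FPKM in root, the last from 2 fragments. All 3 genes were therefore at or near 0 in leaf 2 and root 3 and present in the other 4 libraries. Limma called none of them, with adjusted p = 0.908, 0.771 and 0.618. In the whole table, 3 genes had at least 1 FPKM in leaf 1, leaf 3, root 1 and root 2 and under 0.05 FPKM in leaf 2 and root 3, and 2 of these were Spo04579 and Spo00830. In Bloomsdale Spo04579 and Spo00830 were at 0 in all 6 libraries and Spo26769 was at 0 in 5, with 0.0484 FPKM in 1 root. Over genes, the deviations of leaf 2 and root 3 from their group means had a correlation of 0.309, the highest of the 9 pairs of a leaf and a root.

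Ascorbate peroxidase (APX, Spo08328), which spends ascorbate to reduce hydrogen peroxide, had the highest level of the 15 genes in both tissues. It had 3531, 1330 and 3723 FPKM in leaf 1, leaf 2 and leaf 3 and 897, 984 and 2026 FPKM in root 1, root 2 and root 3. Leaf 2 lay below root 3, so the tissues overlapped. The gene ranked between 29 and 84 among all genes of each library and made up 64.5% to 85.7% of the summed FPKM of the 15. Its log2 fold change of 1.10 (95% interval -0.18 to 2.37) was not called (limma adjusted p = 0.116). After median-of-ratios scaling it was 1.67 (limma adjusted p = 0.0522), and after quantile normalization 0.65 (limma adjusted p = 0.392), not called either way. Without leaf 2, the lowest leaf, it was 1.58 and called (limma adjusted p = 0.0406). With any other library left out it was not called (limma adjusted p = 0.0595 to 0.277). Leaving out leaf 2 and root 3, the highest root, was chosen after seeing the data and removes the overlap. The log2 fold change was then 1.95 (limma adjusted p = 0.0155).

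The ascorbate oxidases, enzymes of the cell wall space that oxidize ascorbate with oxygen, were higher in leaf. Spo12052 had 60.8, 58.6 and 37.3 FPKM in leaf and 13.9, 1.38 and 0.696 FPKM in root. Spo12053 had 89.9, 83.6 and 56.1 FPKM in leaf and 24.6, 2.20 and 0.852 FPKM in root. Every leaf lay above every root for both genes, and root 1 lay far above root 2 and root 3. The log2 fold changes were 4.33 ± 1.01 (SE, limma adjusted p = 0.0121) for Spo12052 and 4.31 ± 1.12 (SE, limma adjusted p = 0.0173) for Spo12053, with 95% intervals of 3.71-fold to 108-fold and 3.07-fold to 128-fold. Without root 1 they were 5.56 and 5.67, and without root 3 they were 3.49 and 3.32. Spo12053 was no longer called without leaf 1 (limma adjusted p = 0.0504), leaf 2 (0.0511) or root 2 (0.0642), and neither gene was called without leaf 2 and root 3 (0.0790 and 0.0956). The ratio of Spo12052 to Spo12053 was 0.568 to 0.816 in the 6 libraries. Their IDs are neighbours, and how reads matching both genes were assigned is not given in the sources used here.

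The 3 oxalate decarboxylase-like genes each had another pattern. Oxalate decarboxylases, known from fungi, split oxalate into formate and carbon dioxide, and the study describes the likeness of these spinach genes to the fungal ones as weak and their function as untested. Spo19759 had 113, 81.7 and 116 FPKM in leaf and 21.5, 21.9 and 14.8 FPKM in root, with all leaves above all roots and a log2 fold change of 2.41 ± 0.24 (SE, limma adjusted p = 3.19e-04). This is 5.32-fold, with a 95% interval of 3.59 to 7.89. Spo25084 had 46.3, 65.7 and 37.3 FPKM in leaf and 149, 130 and 152 FPKM in root, with all roots above all leaves. Its log2 fold change was -1.57 ± 0.25 (SE, limma adjusted p = 0.00237) and -0.99 after median-of-ratios scaling (limma adjusted p = 0.0181). Spo06441 stayed near the lower end of detection, with 0.203, 0.187 and 0.262 FPKM in leaf and 0.774, 0.251 and 0.177 FPKM in root, from 6 to 29 fragments. It reached 0.251 FPKM in 3 libraries, which left it outside the test, and root 1 alone stood above the other libraries.

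The oxalyl-CoA synthetase AAE3 (Spo04424), which in Arabidopsis joins oxalate to coenzyme A as the first step of its breakdown, was abundant in both tissues. It had 105, 77.0 and 121 FPKM in leaf and 127, 121 and 79.3 FPKM in root. The tissues overlapped, and the log2 fold change was -0.10 (95% interval -0.76 to 0.55, limma adjusted p = 0.754) from the deposited values and 0.47 after median-of-ratios scaling (limma adjusted p = 0.217), not called either way and of opposite sign.

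The order of the levels differed between the tissues below ascorbate peroxidase, which led with a mean of 2861 FPKM in leaf and 1302 FPKM in root. In leaf OXAC2 followed with 140 ± 72.6 FPKM, then Spo19759 with 103 ± 18.9, AAE3 with 101 ± 22.4 and Spo12053 with 76.5 ± 18.0 (SD, n = 3), and each of these neighbours overlapped with the next. MFP2 (59.0 ± 14.9 FPKM), acyl-CoA oxidase (55.0 ± 18.2), Spo12052 (52.2 ± 12.9) and Spo25084 (49.8 ± 14.5) came next and did not differ beyond their spread. The aminotransferase (2.02 ± 0.25 FPKM), isocitrate lyase (0.576 ± 0.329) and Spo06441 (0.217 ± 0.0396) were among the lowest. In root Spo25084 followed with 144 ± 11.9 FPKM and AAE3 with 109 ± 26.0, and AAE3 reached 127 FPKM in root 1, close to the lowest Spo25084 value of 130 FPKM. MFP2 (53.7 ± 16.4 FPKM) and acyl-CoA oxidase (51.7 ± 10.5) overlapped, the aminotransferase followed with 32.5 ± 10.4, overlapping acyl-CoA oxidase, and Spo19759 with 19.4 ± 4.01. OXAC2, next to ascorbate peroxidase in leaf, had 8.35 ± 1.92 FPKM in root, below 9 other genes of the list, and isocitrate lyase had 5.90 ± 0.951.

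**Figure D4:**
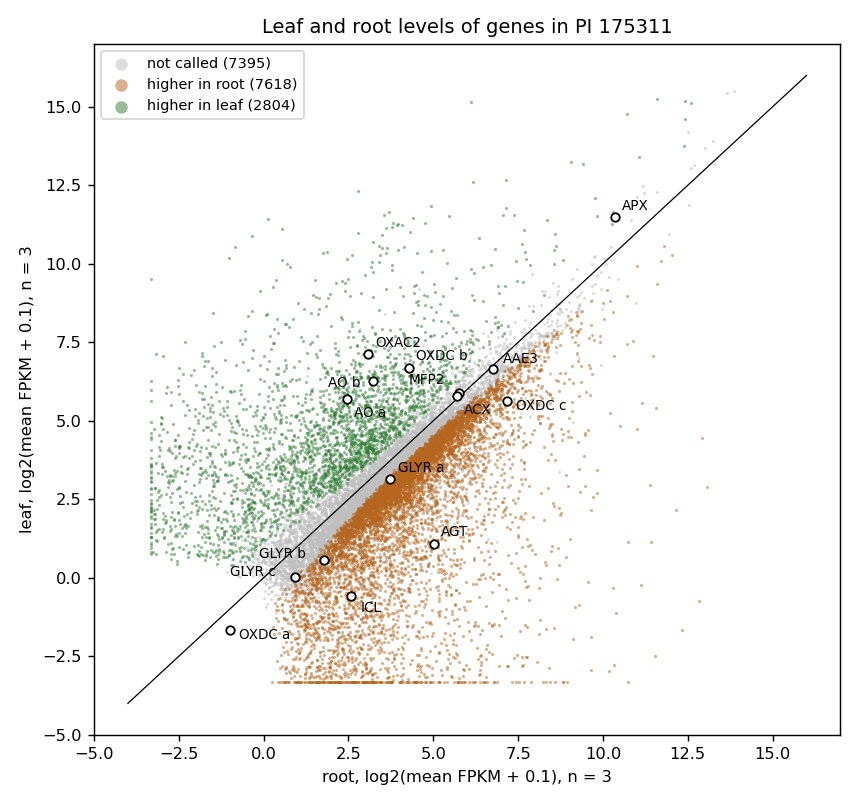
Mean level of each tested gene in root (horizontal axis) and leaf (vertical axis), as log2(mean FPKM + 0.1) over 3 libraries each, with genes called higher in leaf in green (2804), higher in root in brown (7618) and not called in grey (7395). The black line marks equal levels, and the open circles mark the 15 oxalate-related genes, including Spo06441 (OXDC a), which was not tested.

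Whether the tissue difference depended on the genotype was asked with Bloomsdale, whose libraries are separate from those of PI175311. By the same rule, 18630 genes were tested in Bloomsdale, of which 2947 (15.8%) were higher in leaf and 9995 (53.7%) in root, with a median log2 fold change of -0.71. Over the 17165 genes tested in both, the fold changes had an r of 0.909 as a description across genes of 1 annotation, and 89.1% had the same sign. Leaf calls common to both genotypes numbered 2179, which is 77.7% of those of PI175311 and 73.9% of those of Bloomsdale. Root calls common to both numbered 6593, or 86.5% and 66.0%, while 31 genes were higher in leaf in PI175311 and in root in Bloomsdale and 21 the reverse. The interaction of genotype and tissue, tested with limma over all 12 libraries, was called for 442 of 19549 genes (2.26%), of which 292 were above 0 and 150 below. This number ranged from 106 without Bloomsdale root 2 to 840 without Bloomsdale leaf 2. It was also outside 1.5 times the value without Bloomsdale leaf 1 (143), Bloomsdale leaf 3 (209), Bloomsdale root 1 (124), PI175311 leaf 1 (215) and PI175311 leaf 3 (201).

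Of the 14 oxalate-related genes tested, 1 was called in the interaction. Isocitrate lyase (Spo13898) had 0, 0 and 0.0197 FPKM in Bloomsdale leaves, the last from 1 fragment, and 5.91, 15.1 and 18.7 FPKM in Bloomsdale roots, so it was higher in root in both genotypes. The log2 fold change was -6.82 ± 0.47 (SE) in Bloomsdale and -3.25 ± 0.43 in PI175311, and the interaction was 3.56 ± 0.66 (SE, limma adjusted p = 0.0241). All 3 PI175311 leaves lay above all Bloomsdale leaves for this gene, and the size of the Bloomsdale value depends on the 0.1 FPKM added. The study named this gene for that leaf difference, from the same libraries. The interaction contains the difference, so its call is not independent of the choice. With 1 FPKM added the interaction was 1.55 and not called (limma adjusted p = 0.0934), and it was not called without PI175311 leaf 1 (0.0518), PI175311 leaf 3 (0.0523), Bloomsdale leaf 1 (0.0627) or Bloomsdale root 2 (0.0815).

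The other genes of the list had no interaction called over all 12 libraries. The study named several of them for a higher level in PI175311, from these same libraries. Among these are the aminotransferase and both ascorbate oxidases, from leaf, and OXAC2, from root. Their interactions contain that difference, so a call with a library left out is not independent of the choice. The aminotransferase (Spo12360) was higher in root in both genotypes, with log2 fold changes of -3.90 in PI175311 and -6.29 in Bloomsdale and an interaction of 2.39 (95% interval 1.10 to 3.68, limma adjusted p = 0.0631). This interaction was 1.18 with 1 FPKM added (limma adjusted p = 0.0805), beside Bloomsdale leaf levels of 0.145 to 0.774 FPKM, and it was called without Bloomsdale leaf 2 (2.94, limma adjusted p = 0.00635). OXAC2 was higher in leaf in both, with 3.95 and 5.64 and an interaction of -1.70 (95% interval -3.58 to 0.19, limma adjusted p = 0.358), called without Bloomsdale root 3 (-2.52, limma adjusted p = 0.0455). Spo19759 and Spo25084 kept their directions, with 2.41 and -1.57 in PI175311 and 1.59 and -0.76 in Bloomsdale.

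In Bloomsdale the ascorbate oxidase Spo12052 had 3.48 to 12.0 FPKM in leaf and 1.80 to 4.43 FPKM in root, and Spo12053 had 5.65 to 17.6 and 2.62 to 6.96 FPKM, so leaf and root overlapped for both genes. Their Bloomsdale log2 fold changes were 1.22 (limma adjusted p = 0.0644) and 1.36 (limma adjusted p = 0.0429), and the interactions of 3.10 and 2.95 were not called (limma adjusted p = 0.241 and 0.307) except without PI175311 root 1 (4.34 and 4.30, limma adjusted p = 0.0176 and 0.0197). MFP2 and acyl-CoA oxidase were called higher in root in Bloomsdale (-0.74 and -1.37, limma adjusted p = 0.0142 and 0.0136) and were not called in PI175311, but the difference between the genotypes was not called for either (0.88 and 1.42, limma adjusted p = 0.263 and 0.200).

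**Figure D5:**
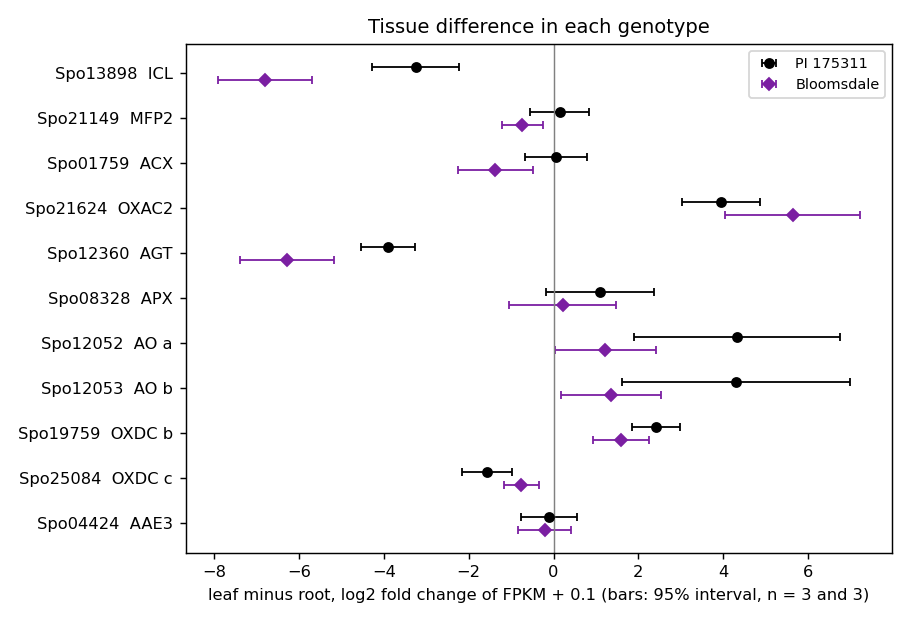
Leaf minus root log2 fold change of FPKM + 0.1 (horizontal axis) of 11 oxalate-related genes in PI175311 (black circles) and Bloomsdale (purple diamonds), with 95% intervals from 3 libraries of each tissue. The 3 reductase-like genes and Spo06441, not tested in Bloomsdale, are not drawn, and isocitrate lyase at the top has the one called difference between the genotypes, -3.25 against -6.82.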

How the data were processed

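The deposited table gave FPKM per gene and library, computed by the authors from gene length and mapped reads. The authors' methods state that reads were aligned with TopHat 2.0.12 on a Bowtie 2.2.3 index of the SpinachBase genome, counted with HTSeq 0.6.1 and tested with DESeq 1.18.0, whereas the authors' processing notes on deposition list HISAT2 2.1.0, fastp, featureCounts and DESeq2. Which of these made the values, and the genome build, are not given in the sources used here. The FPKM were not scaled further for the main test. Whole fragments and gene lengths were solved from the FPKM of all 21554 genes above 0 in at least 6 libraries (tolerance 1e-04 fragments plus 2e-08 of their number), against 0 of 200 genes with altered totals, and totals were 18451262 to 25245734 fragments.

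Leaf and root of PI175311 (3 libraries each) were compared with limma 3.58.1 (R 4.3.3, trend and robust options, 0.1 FPKM added before log2), keeping genes that had 1 FPKM or more in 3 or more of the 6 libraries. An adjusted p under 0.05 was called. The interaction used all 12 libraries and genes with 1 FPKM or more in at least 3 of them. Single values per library were compared by exact permutation. Python 3.11.15, numpy 2.4.6, scipy 1.17.1, pandas 2.3.3 and matplotlib 3.10.9 served the rest. The limma fit was run on simulated data with few changed genes and no shift of the whole distribution. That setting differs from the data here, so it does not bear on the scaling.

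The members and lists were chosen with earlier results of these data known. The named genes are the 15 whose ID and function the paper's text prints and the 2 with the largest fold change in each direction among called genes whose groups did not overlap. With 0 of the gene IDs among the 39719 genes of the reference table, sequences, markers and gene families were not analysed here. Alternatives were quantile normalization, scaling by median of ratios, 0.01 or 1 FPKM added, a mean of 5 FPKM or more as filter or no filter, the fit over 12 libraries, limma's default options, limma-voom on the recovered fragments, the replicate number as a block, a minimum fold of 2, and each library left out. TPM scaling and leaving out leaf 2 with root 3 were chosen after seeing the data. Of the 6 measures compared by permutation, the summed FPKM and the number of genes making up 50% of it were not in the plan.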

Additional observations from a re-analysis of the deposited data

Results flagged for a closer look

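The leaf minus root difference of isocitrate lyase (Spo13898) differed between the genotypes by a test of the difference itself, with an interaction of 3.56 ± 0.66 on the log2 scale (SE, limma adjusted p = 0.0241 over 19549 genes). The study named this gene for a higher level in PI175311 leaf than in Bloomsdale leaf, from these libraries, a difference the interaction contains. The gene was higher in root in 3 of 3 roots against 3 of 3 leaves in both genotypes, and its leaf level, 0.300 to 0.940 FPKM in PI175311 and 0 to 0.0197 FPKM in Bloomsdale, rested on 47 fragments or fewer per library. The interaction was not called with 1 FPKM added (1.55, limma adjusted p = 0.0934) or without PI175311 leaf 1, PI175311 leaf 3, Bloomsdale leaf 1 or Bloomsdale root 2 (limma adjusted p = 0.0518 to 0.0815).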

How the results depend on the processing

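The number of genes higher in root changed most with the scaling, from 7618 to 3457 with median-of-ratios scaling and 4063 with quantile normalization, while TPM gave 10391, with 2337 higher in leaf. It was 4489 without leaf 2 and root 3 and 5068 with a 2-fold minimum. Leaving out 1 library gave 5370 to 6882 genes higher in root and 2345 to 2678 higher in leaf, 3 to 4 of the list higher in leaf and 3 to 3 in root. Genes with an interaction numbered 942 with 1 FPKM added and 106 to 840 with 1 library left out, and list genes with an interaction 0 with 1 FPKM added and 0 to 3. Genes on in leaf alone were 24 with 5 FPKM as the line, 46 with 0 FPKM as off and 77 to 164 without 1 library, and genes on in root alone 99 at 5 FPKM and 289 to 355. The cause of these changes was not tested.

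The deviations of a leaf and the root of the same number from their group means correlated at 0.044, -0.210 and -0.202, so the numbers were not taken to pair them. No fit paired leaf and root under other numbers. With the replicate block 2549 genes were higher in leaf and 5882 in root, 130 had an interaction, 0 of them on the list, and that of Spo13898 had an adjusted p of 0.0746. Among the named genes, no called value changed direction under the alternatives run for it. At this depth levels such as those of Spo06441, 6 to 29 fragments, carry counting error that limits any comparison. Any PCR copies, which were not measured here, would make fragments less than independent.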
